A study of Homo sapiens with 6 samples.

Results

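The genes described are 8 keratins (KRT7, KRT8, KRT10, KRT18, KRT19, KRT23, KRT80 and KRT81) and vimentin (VIM), 9 of the 78304 genes in the deposited table, chosen by symbol. All were found under 1 row each. Their mRNA was sequenced after poly(A) selection in wild-type Huh7 cells, a long-established human liver cancer line. Cells plated for 24 h were given either the vehicle DMSO (3 libraries) or the compound 16'-DEC (3 libraries) and kept for another 24 h. The labels give neither a dose nor anything of the compound beyond its code. The study asked how the compound alters mRNA in these liver cancer cells, and its title names autophagy.

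Keratins and vimentin build intermediate filaments, the ropelike part of the cytoskeleton that lets cells resist mechanical stress. A keratin filament assembles from pairs of 1 type I chain and 1 type II chain, whereas vimentin, a type III protein, can assemble on its own. Hepatocytes are known for keeping the simplest pair, KRT8 (type II) with KRT18 (type I). Bile duct cells add KRT7 and KRT19, and vimentin is typical of fibroblasts and other mesenchymal cells. KRT8 and KRT18 are also abundant in Mallory-Denk bodies, the protein inclusions of stressed liver cells.

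The members share a coiled rod, and their coding sequences are related along their length. Over the whole coding sequence, KRT8 was 75.9% identical to KRT7, 65.5% to its partner KRT18 and 64.1% to VIM at aligned bases. The longest run of identical bases between KRT8 and KRT18 was 15, and between KRT18 and KRT19 it was 17.

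KRT8 and KRT18 also have many processed copies in the genome, and the most abundant copy of KRT18 is set beside its parent because reads from such stretches are hard to place. The lines give 60 bases of the parent's coding sequence and the matching bases of the copy, 5′ to 3′ (GENCODE 29, GRCh38), with capitals at the bases that differ.
KRT18: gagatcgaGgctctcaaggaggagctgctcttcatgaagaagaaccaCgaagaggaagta
KRT18P5: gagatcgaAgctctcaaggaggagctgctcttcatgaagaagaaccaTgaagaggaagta
KRT18P5 (chromosome 22, 20482815 to 20484105) was 91.7% identical to KRT18, with a longest identical run of 50 bases. KRT8P33, the most abundant copy of KRT8, was closer to its parent, at 95.8% identity and a longest identical run of 133 bases. In the table all 51 copies of KRT8 together held 0.781 to 1.45 TPM per library and the 67 copies of KRT18 held 0.671 to 1.30 TPM. TPM are transcript abundances scaled for gene length to a fixed sum per library. These sums were at most 0.127% of KRT8 and 0.181% of KRT18, so the parents carried nearly all of the deposited signal. The sources used here do not say how the authors' counting divided reads between a parent and its copies.

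TPM keep no trace of how many reads were sequenced, so depth is unknown. Genes at or above 1 TPM numbered 14936 to 15118 with DMSO and 13131 to 13459 with 16'-DEC. At most 0.0692% of values were identical between any 2 libraries. Nothing in the labels says that replicates came from separate cultures. The p-values therefore describe the spread of these libraries alone, which may be technical. All 14 hepatocyte markers on the list used here reached 1 TPM, and ALB, the serum albumin gene, had a mean of 4931 TPM with DMSO and 4369 TPM with 16'-DEC. Endothelial markers summed to 0.418 to 0.844 TPM per library and skin keratinocyte markers to 0.039 to 0.071 TPM. Fibroblast and stellate cell markers summed to 3.18 to 4.39 TPM with DMSO and 0.812 to 2.93 TPM with 16'-DEC, and DCN and LRAT were listed at 0 throughout. Of 10 leukocyte markers 4 were tested, LYZ made up most of their summed 882 to 1830 TPM, and CD3E, MS4A1 and CD163 were listed at 0.

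DMSO replicate 3 stood apart from the others. In it 88 genes reached 3 TPM at a level at least 5 times that of both other DMSO libraries, against 1 to 16 genes by the same rule in each of the other libraries. Of these, 23 are on 2 lists made after the values were seen. Of the 18 genes of the first list, genes of red blood cell precursors, 17 were at least 5 times higher there than in any of the other libraries, and only HBB, listed at 0, was not. The erythroid genes summed to 1652 TPM in DMSO replicate 3, 16.6 and 22.0 TPM in DMSO replicates 1 and 2, and 44.8 to 52.6 TPM in the 16'-DEC libraries. All 10 genes of the second list, cancer-testis antigens, were also at least 5 times higher there. VIM was far higher in this library than in any other, and its values are given with and without it. The part of the erythroid and cancer-testis signal in the VIM result was not tested. Whether all RNA of this library, VIM included, came from Huh7 cells was not tested either. Without DMSO replicate 3 the changes of KRT8, KRT18, KRT19 and KRT23 were 1.00, 1.06, 1.69 and 0.29, and all were called (adjusted p from 9.45e-06 to 0.0136, limma).

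Changes are differences in log2(TPM + 1), 16'-DEC minus DMSO, and adjusted p-values are from limma fitted to all 14275 genes that averaged 1 TPM or more. Benjamini-Hochberg adjustment was over all of them, with a threshold of 0.05. Of the 9 members 6 were tested and 3 (KRT7, KRT80 and KRT81) lay below this level. KRT8, KRT18, KRT19 and KRT23 rose, VIM was called lower and KRT10 did not pass. VIM reached the level tested only through the DMSO group, and in a fit with no filter it did not pass (adjusted p = 0.125, limma). Over all genes tested 71.5% were called, 22.7% as higher and 48.9% as lower, and the median change was -0.31. The groups did not overlap for 5 of the 6 tested members, and for 75.3% of all genes tested. With this much of the table called, a call on its own sets no member apart. The size places KRT19 among the 43 largest increases of the table, KRT18 among the 393 largest and KRT8 among the 447 largest. In bulk RNA, fewer cells of a kind and less RNA per cell cannot be told apart.

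**Figure D1:**
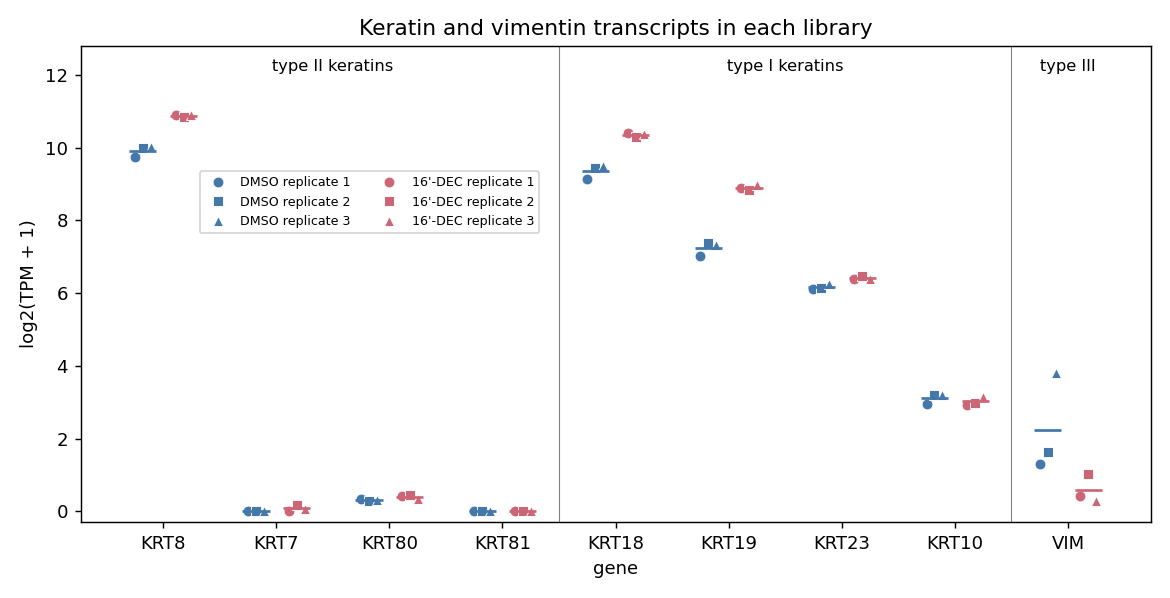
Level of each member in each library as log2(TPM + 1), with genes on the x axis grouped by filament type, 1 symbol per library and short lines at the group means. KRT8, KRT18, KRT19 and KRT23 have all 3 16'-DEC libraries above all 3 DMSO libraries, KRT10 overlaps, and VIM has DMSO replicate 3 far above the rest.

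KRT8, the type II chain of the hepatocyte pair (ENSG00000170421, chromosome 12, 52897187 to 52949954, minus strand; GRCh38, GENCODE 29, as for all positions), was the most abundant keratin. It stood at 865, 1017 and 1028 TPM in the DMSO libraries and at 1915, 1824 and 1900 TPM with 16'-DEC. The groups did not overlap, and the lowest treated library was far above the highest control. The means were 970 ± 91.4 and 1880 ± 48.6 TPM (SD, n = 3 each), a ratio of 1.94. The change was 0.96 ± 0.0798 (SE; adjusted p = 7.25e-06, limma).

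KRT18, its type I partner (ENSG00000111057, chromosome 12, 52948871 to 52952901, plus strand), stood at 569, 698 and 721 TPM with DMSO and at 1343, 1266 and 1333 TPM with 16'-DEC. Again every treated library was above every control, and DMSO replicate 1 was the lowest library for both genes. The means were 663 ± 82.1 and 1314 ± 41.6 TPM (SD, n = 3 each), a ratio of 1.98, and the change was 0.99 ± 0.0939 (SE; adjusted p = 1.63e-05, limma). The annotated KRT8 and KRT18 genes overlap head to head on opposite strands. They share 525 exonic bases, 16.3% of the exonic bases of KRT18 and 7.63% of those of KRT8. No strand marking is described for the libraries, so it is unknown whether reads from these bases could be assigned to the right gene.

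Since the pair must meet in 1 filament, the ratio of their transcripts was followed within each library, where scaling cancels. The ratio of KRT8 to KRT18 was 1.52, 1.46 and 1.43 with DMSO and 1.43, 1.44 and 1.43 with 16'-DEC. The groups overlapped, the log2 difference was -0.04 and the exact permutation p was 0.2 (2-sided; 3 against 3 libraries cannot go below 0.1). Without DMSO replicate 3 the difference was -0.06 and the groups no longer overlapped. This difference was small beside the change of either gene, but so few libraries do not show that the ratio was equal.

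KRT19, a small type I keratin that lacks most of the usual tail and marks bile duct and progenitor cells (ENSG00000171345, chromosome 17, 41523617 to 41528308, minus strand), rose most of the members. It stood at 130, 166 and 160 TPM with DMSO and at 472, 455 and 505 TPM with 16'-DEC. The groups lay far apart, with means of 152 ± 19.5 and 477 ± 25.7 TPM (SD, n = 3 each), a ratio of 3.14. The change was 1.65 ± 0.10 (SE; adjusted p = 1.11e-06, limma).

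The make-up of the type I pool was compared within each library. KRT19 was 0.228, 0.238 and 0.222 of the KRT18 level with DMSO and 0.351, 0.359 and 0.379 of it with 16'-DEC. These ratios did not overlap (exact permutation p = 0.1, 2-sided, the smallest possible, n = 3 each; adjusted p = 0.125 over the 5 ratios compared). As a share of all type I keratin TPM, KRT19 took 16.6% to 17.6% with DMSO and 24.8% to 26.2% with 16'-DEC. Summed type II keratins stood at 1.12, 1.08 and 1.07 times summed type I keratins with DMSO and at 1.01, 1.00 and 0.984 times with 16'-DEC, again without overlap (exact permutation p = 0.1, 2-sided, n = 3 each; adjusted p = 0.125). The log2 difference was -0.12, and neither of these ratios could pass 0.05 in this design.

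Keratins as a whole took 0.164%, 0.196% and 0.199% of all TPM with DMSO and 0.382%, 0.364% and 0.383% with 16'-DEC. The total went from 1865 ± 196 to 3765 ± 106 TPM (SD, n = 3 each), a ratio of 2.02, and its shares did not overlap (exact permutation p = 0.1, 2-sided, the smallest possible; adjusted p = 0.125). KRT8 and KRT18 made up 84.4% to 87.7% of this total in every library.

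**Figure D2:**
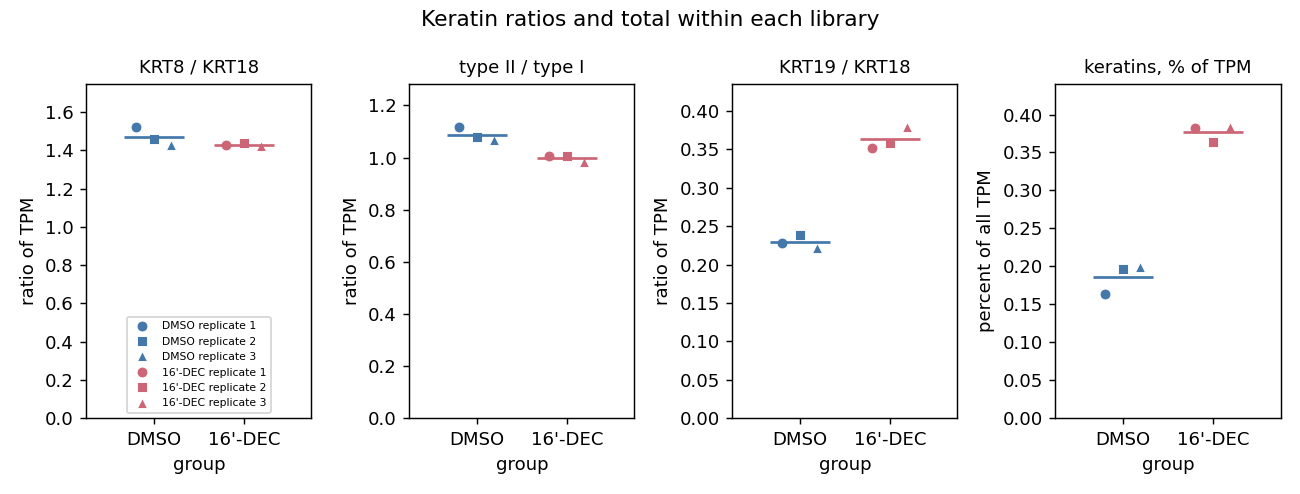
Ratios of TPM within each library (KRT8 to KRT18, summed type II to summed type I, KRT19 to KRT18) and the share of all TPM taken by keratins in percent, by group, with 1 symbol per library and lines at the means. The KRT8 to KRT18 ratio overlaps between groups near 1.43, while the KRT19 to KRT18 ratio goes from at most 0.238 to at least 0.351.

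KRT23, a type I keratin of the cluster on chromosome 17 (ENSG00000108244, 40922696 to 40937634, minus strand), had a far smaller increase. It stood at 68.5, 69.1 and 74.7 TPM with DMSO and at 82.1, 87.3 and 83.2 TPM with 16'-DEC. The groups did not overlap, but the gap between the nearest libraries was narrow. The change was 0.25 ± 0.0717 (SE; adjusted p = 0.0124, limma), a ratio of means of 1.19. It is larger when set against the median gene, which was at -0.31.

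KRT10, a type I keratin best known from the upper layers of the skin (ENSG00000186395, chromosome 17, 40818117 to 40822595, minus strand), stood at 6.70, 8.12 and 8.22 TPM with DMSO and at 6.65, 6.93 and 7.82 TPM with 16'-DEC. The groups overlapped and the change of -0.09 ± 0.11 did not pass (SE; adjusted p = 0.475, limma). Its sign depends on the scaling: median-of-ratios scaling gave 0.22, and quantile normalization gave 0.42, which passed (adjusted p = 0.0125, limma). The antisense gene KRT10-AS1 shares 56 exonic bases with KRT10 and was listed higher than it, at 28.9, 35.0 and 37.5 TPM with DMSO and 40.2, 36.7 and 41.8 TPM with 16'-DEC. KRT10-AS1 did not pass (0.23, adjusted p = 0.0876, limma). After adjustment for GC content and transcript length it did (1.37, adjusted p = 3.72e-05, limma). Reads from the shared bases cannot be told apart without strand.

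The remaining members were near or at 0. KRT7, the type II keratin of bile ducts (ENSG00000135480, chromosome 12, 52232520 to 52252186, plus strand), was listed at 0 in all DMSO libraries and at 0, 0.131 and 0.045 TPM with 16'-DEC. KRT7 and KRT19 occur together in bile duct cells, but with KRT7 at or near 0 no ratio of the 2 was formed. KRT80, a type II keratin (ENSG00000167767, chromosome 12, 52168996 to 52192000, minus strand), was at 0.261, 0.212 and 0.237 TPM with DMSO and 0.343, 0.364 and 0.264 TPM with 16'-DEC. Its groups touch at 0.261 and 0.264 TPM, and in a fit with no filter on low values it did not pass (adjusted p = 0.349, limma). KRT81, a hair keratin (ENSG00000205426, chromosome 12, 52285913 to 52291534, minus strand), was listed at 0 in every library. Its close relatives KRT83 and KRT86 were listed at 0 too.

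VIM (ENSG00000026025, chromosome 10, 17228259 to 17237593, plus strand) was low and uneven. It stood at 1.46, 2.09 and 13.1 TPM with DMSO and at 0.334, 1.03 and 0.221 TPM with 16'-DEC. DMSO replicate 3 was far above every other library, and the lowest DMSO library was still above the highest treated one. The change was -1.67 ± 0.571 (SE; adjusted p = 0.0261, limma), and without DMSO replicate 3 it was -0.89 ± 0.237 (adjusted p = 0.0107). The ratio of DMSO to 16'-DEC means was 10.5 with that library and 3.37 without it. Leaving out 16'-DEC replicate 1 (-1.59, adjusted p = 0.0567) or replicate 3 of that group (-1.53, adjusted p = 0.0813) ended the call of VIM, as did quantile normalization (adjusted p = 0.0841). Most of these values lie near the lower end of what was tested. The VIM mean was 5.54 TPM with DMSO and 0.528 TPM with 16'-DEC, so VIM was tested only because of its DMSO values. With no filter on low values it did not pass (adjusted p = 0.125, limma). The ratio of VIM to the sum of KRT8 and KRT18 was 0.00102, 0.00122 and 0.00747 with DMSO and 1.03e-04, 3.33e-04 and 6.83e-05 with 16'-DEC. These ratios did not overlap, with a log2 difference of -3.99 (exact permutation p = 0.1, 2-sided, n = 3 each; adjusted p = 0.125). Without DMSO replicate 3 the difference was -3.07 (exact permutation p = 0.2).

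The gene whose pattern over the 6 libraries was most like that of VIM was TMSB4X, which encodes the actin-binding peptide thymosin beta 4 (Pearson's r = 0.997 over 6 libraries, given as a description). TMSB4X stood at 6.67, 9.14 and 54.2 TPM with DMSO and at 2.25, 4.58 and 1.65 TPM with 16'-DEC. It too was highest in DMSO replicate 3 and, among treated libraries, in replicate 2. The TMSB4X log2 change was -2.16 (adjusted p = 0.0149, limma), and without DMSO replicate 3 it was -1.28 (adjusted p = 0.00567). TMSB4X did not pass without 16'-DEC replicate 3 (-1.93, adjusted p = 0.0561). ANXA1 (annexin A1) stood at 0.403, 0.214 and 23.7 TPM with DMSO and at 0.249 to 0.597 TPM with 16'-DEC. LDHB, a lactate dehydrogenase subunit, stood at 0.18, 0 and 33.6 TPM with DMSO and at 0.429 to 0.57 TPM with 16'-DEC. HBG1, a fetal haemoglobin chain, stood at 0, 0.365 and 331 TPM with DMSO and at 3.92 to 5.64 TPM with 16'-DEC. HBG1 and LDHB were higher in the treated libraries than in DMSO replicates 1 and 2, ANXA1 overlapped, and VIM and TMSB4X were lower. The part of the signal of DMSO replicate 3 in these patterns was not tested. VIM-AS1, an antisense gene that shares 641 exonic bases with VIM, was at 0.052, 0.151 and 0.335 TPM with DMSO and at 0 to 0.016 TPM with 16'-DEC.

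**Figure D3:**
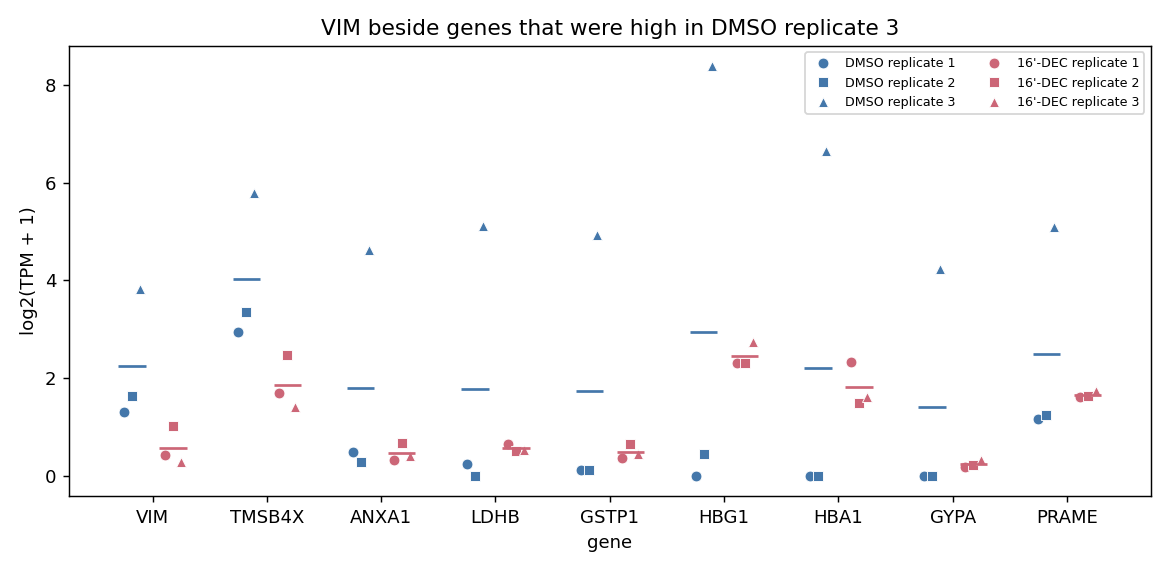
VIM beside genes that were high in DMSO replicate 3, as log2(TPM + 1) per library, with 1 symbol per library and short lines at the group means. DMSO replicate 3 is the highest library for all 9 genes, from 13.1 TPM for VIM to 331 TPM for HBG1, while VIM and TMSB4X also differ between the other DMSO and 16'-DEC libraries.

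Patterns of the abundant keratins resembled those of many other genes, as most of the table differed between the groups. The genes most like KRT8 were AGPAT2, CAPNS1 and SLC25A5, those most like KRT18 were COMMD5, COPE and SLC25A6, and those most like KRT19 were TMEM101, SH3BGRL3 and CNPPD1 (Pearson's r at least 0.9996 in each case). By comparison r was 0.999 between KRT8 and KRT18, 0.998 between KRT8 and KRT19 and 0.995 between KRT18 and KRT19. These values are over 6 libraries in 2 groups and mostly describe the group difference. AGPAT2, an enzyme of phosphatidic acid synthesis, rose by 1.64, CAPNS1, the small calpain subunit, by 1.08 and SH3BGRL3 by 1.43 (adjusted p from 1.86e-06 to 8.78e-06, limma).

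Change in this table also went with the base composition of transcripts. Genes with 50% to 60% GC had a median change of 0.14 (4159 genes) and those above 60% a median of 0.27 (2010 genes), against -1.46 below 40%. KRT8 (59.1% GC), KRT18 (60.5%) and KRT19 (61.8%) belong to the GC-rich genes, and KRT10, KRT23 and VIM lie between 50.3% and 53.9%. After each library was adjusted for GC content and transcript length, KRT8 was at 0.65 ± 0.0501, KRT18 at 0.67 ± 0.0543, KRT19 at 1.33 ± 0.0514 and KRT23 at 0.27 ± 0.0478 (SE). All remained called as higher (adjusted p from 2.80e-06 to 0.00153, limma), and VIM remained lower at -1.81 ± 0.595 (adjusted p = 0.0292). The part of base composition in the changes was not tested beyond this adjustment. Scaling moved the values as well, since the median of all genes shifted by 0.29 under median-of-ratios scaling and by 0.42 under quantile normalization. KRT8, KRT18, KRT19 and KRT23 were called higher under both, from 0.48 for KRT23 to 2.00 for KRT19.

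**Figure D4:**
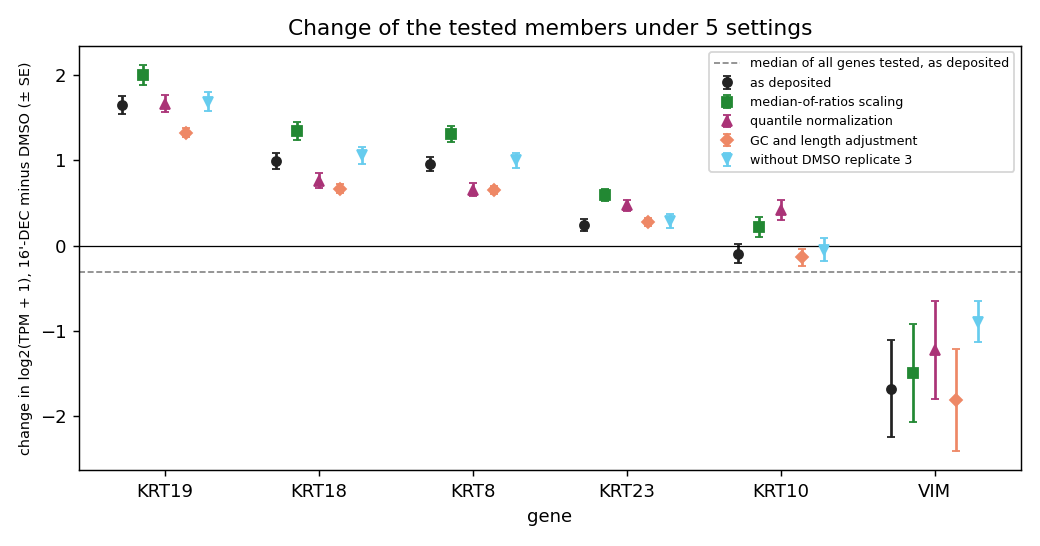
Change of the 6 tested members in log2(TPM + 1), 16'-DEC minus DMSO, with SE bars, as deposited and under 4 other settings, with the dashed line at the median of all genes tested (-0.31). KRT19, KRT18, KRT8 and KRT23 lie above 0 in every setting shown, KRT10 lies on both sides of 0, and VIM lies below 0 with wide errors except without DMSO replicate 3.

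Other keratins were nearly silent. The table holds 55 keratin genes, of which 33 were listed at 0 in every library, 16 had a mean between 0 and 1 TPM and 6 were tested. KRT15, a type I keratin of basal epithelia, was the only tested keratin outside the members, at 0.981, 1.71 and 1.00 TPM with DMSO and 1.10, 1.37 and 1.27 TPM with 16'-DEC, and did not pass (adjusted p = 0.903, limma). With quantile normalization the KRT15 log2 change was 0.52 and passed (adjusted p = 0.0223). KRT17, a type I keratin induced in injured epithelia, was listed at 0, 0 and 0.048 TPM with DMSO and 0.225, 0.131 and 0.175 TPM with 16'-DEC. Its groups did not overlap, and in the fit with no filter on low values it passed (0.21, adjusted p = 0.0106, limma), at levels below 1 TPM throughout.

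Among the other intermediate filament genes 8 of 17 were tested, of which 1 rose, 4 fell and 3 did not pass (median -0.16, against -0.31 over all genes). Calls over all genes tested were 22.7% higher and 48.9% lower. Among the nuclear lamins, LMNA, which encodes lamins A and C, rose from 112 to 232 TPM on average (1.05), and LMNB1, lamin B1, fell from 72.6 to 19.5 TPM (-1.85; adjusted p = 1.01e-05 and 4.66e-07, limma). After GC and length adjustment they were at 0.83 and -1.59. SYNM (synemin), which assembles with vimentin or desmin, fell from 2.36 to 1.18 TPM (-0.62, adjusted p = 0.00126). With quantile normalization the SYNM log2 change was -0.13 and did not pass (adjusted p = 0.338). SYNC (syncoilin) fell by 0.33 (adjusted p = 0.00713), but did not pass under either other scaling or after GC adjustment.

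Transcripts of proteins that anchor the filaments went both ways. Of 17 cytolinker and desmosome genes 14 were tested, of which 3 rose, 8 fell and 3 did not pass (median -0.54). The shares over all genes tested were 22.7% higher and 48.9% lower. DST (dystonin, -1.85, GC-adjusted -0.81), PKP2 (plakophilin 2, -1.63) and DSC2 (desmocollin 2, -1.42) fell, while JUP (plakoglobin) rose by 0.95 and PLEC (plectin), which ties filaments to each other and to membranes, by 0.78. Their adjusted p-values ran from 6.08e-07 to 4.96e-04 (limma). The median GC content of the list was 48.1%, and after GC and length adjustment 5 were higher and 5 lower, with DSC2 at -0.00945. Of 7 hemidesmosome and laminin receptor genes 3 were tested: CD151, a tetraspanin, rose by 0.85 (GC-adjusted 0.52), ITGB4, integrin beta 4, rose by 0.37 (adjusted p = 0.0399) and ITGA6, integrin alpha 6, fell by 0.94. ITGB4 passed in only 1 of the 6 fits that left out a library, that without DMSO replicate 1, and after GC adjustment neither integrin passed (ITGB4 at 0.24, ITGA6 at -0.02).

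Kinases, phosphatases, caspases and ligases that act on filaments went both ways, with 10 of 31 tested genes higher, 11 lower and 10 not passing (median -0.08). Among all genes tested 22.7% were higher and 48.9% lower. CDK1, which phosphorylates vimentin and keratins in mitosis, fell (-3.36, GC-adjusted -1.92). PPP1CA, a phosphatase subunit, rose by 0.91 (GC-adjusted 0.59) and STUB1, a ligase of protein quality control, by 0.66 (GC-adjusted 0.37; adjusted p from 1.03e-07 to 1.56e-04 for these genes, limma). After GC and length adjustment 19 were higher and 7 lower.

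Of 23 transcription factor genes with links to keratin or vimentin promoters 16 were tested, of which 8 rose, 4 fell and 4 did not pass (median 0.28). By comparison 22.7% of all genes tested rose and 48.9% fell. ELF3, an epithelial ETS factor, rose from 11.1 to 32.6 TPM on average (1.48, GC-adjusted 1.44). FOSL1 rose by 0.97 (GC-adjusted 0.64) and JUNB by 0.80 (GC-adjusted 0.49), both parts of AP-1. SP3, which binds GC boxes, fell by 2.41 (GC-adjusted -1.04) and KLF5 by 0.96 (GC-adjusted -0.59; adjusted p from 1.54e-07 to 1.05e-04 for these genes, limma). After the adjustment 8 were higher and 5 lower.

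Members are also used as markers of cell states, beside other genes. Of 9 tested biliary and progenitor markers 2 rose, KRT19 itself and GGT1 (0.53, GC-adjusted 0.25), 6 fell and 1 did not pass (median -0.42). Across all genes tested 22.7% rose and 48.9% fell. EPCAM, an adhesion molecule of progenitor cells, fell from 546 to 182 TPM (-1.58), SPP1 (osteopontin) by 1.08 and SOX9, a biliary transcription factor, by 0.79 (adjusted p from 3.51e-07 to 2.98e-05, limma). After GC adjustment SPP1 was at -0.14 and no longer called, and 3 of the list were higher and 3 lower. Of 14 hepatocyte markers 5 rose, led by APOA2 (0.72) and APOA1 (0.73, GC-adjusted 0.41), 7 fell, led by FGG (-1.78, GC-adjusted -0.91), FGB (-1.28, GC-adjusted -0.36) and AFP (-1.50, GC-adjusted -0.27), and 2 did not pass (median -0.16). After GC adjustment 9 hepatocyte markers were higher and 5 lower. ALB was called lower at -0.17 (adjusted p = 0.0487, limma) but higher after GC adjustment (0.77, adjusted p = 2.03e-05, limma).

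Of 10 tested mesenchymal markers 2 rose, 6 fell, VIM among them, and 2 did not pass (median -0.45). ZEB1, a repressor of epithelial genes, fell by 1.52 (GC-adjusted -0.23), CDH2 (N-cadherin) by 0.82 (GC-adjusted -0.20) and FN1 (fibronectin) by 0.57, but FN1 was not called with GC adjustment (-0.30, adjusted p = 0.13) or under median-of-ratios scaling. SNAI1, another such repressor, rose from 1.79 to 5.45 TPM (1.20) and S100A4 from 6.19 to 12.7 TPM (0.94; adjusted p from 8.36e-06 to 4.64e-04 for the 5 genes, limma). Of 7 tested epithelial markers the 3 that rose were KRT8, KRT18 and KRT19, 2 fell (EPCAM, and MAL2 at -1.49, GC-adjusted -0.29) and 2 did not pass (median 0.15). CDH1 (E-cadherin) stood at 12.4 and 14.0 TPM on average and did not pass (0.15, adjusted p = 0.333, limma), though it did after GC adjustment (0.45, adjusted p = 0.00103). For comparison, 22.7% of all genes tested were higher and 48.9% lower.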

How the data were processed

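Poly(A) RNA of 6 Huh7 libraries (3 DMSO, 3 16'-DEC, grouped by title) was sequenced. The authors deposited a TPM table of 78304 genes. The tools listed, with no role or order, in the submitters' processing notes are HISAT2 2.0.1, HTSeq 0.6.1, cutadapt 1.9.1 and DESeq2, and the build is GRCh38. The annotation used for TPM is not given in the sources used here. Depth cannot be read from TPM.

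Genes averaging 1 TPM or more entered limma 3.58.1 (R 4.3.3) as log2(TPM + 1) (mean trend, 2-sided, Benjamini-Hochberg, threshold 0.05). The fit was also run on simulated data with independent errors and far fewer changed genes than were called here. That run does not show how the fit behaves on a table like this one. The scale understates changes of low genes. Ratios were compared with an exact permutation test. The members and gene lists were chosen with earlier results of these data known. Besides the members, the text names, for each list, up to 3 called genes in the commoner direction and 2 in the other, by adjusted p, the 3 genes most like each of KRT8, KRT18, KRT19 and VIM (mean of at least 5 TPM), and the leading keratins and pseudogenes; KRT17, KRT83, KRT86, ALB, CDH1, antisense genes, and ANXA1, LDHB and HBG1 were chosen after seeing values. GC content and length came from GENCODE 29 for 93.1% of tested genes, and the adjustment (natural splines, 5 degrees of freedom each) also re-centres each library. Coding sequences were the longest reading frames of the GENCODE transcripts. Some genes and sequences are not reported here. Figures were drawn with matplotlib 3.10.9.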

Additional observations from a re-analysis of the deposited data

How the results depend on the processing

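KRT8, KRT18 and KRT19 stayed called as higher under all 19 alternatives, and KRT23 under all but the threshold of 0.01 (0.25, adjusted p = 0.0124). KRT10 turned positive with quantile normalization (0.42) and with median-of-ratios scaling (0.22). VIM did not pass with a pseudocount of 5 (-0.77), no filter (-1.67, adjusted p = 0.125), quantile normalization (-1.22) or the threshold of 0.01 (-1.67), and over the fits without 1 library it ran from -2.15 to -0.89. Members called lower were 0 with a pseudocount of 5, no filter, a mean of at least 5 TPM (VIM then untested), quantile normalization and the threshold of 0.01, and 0 to 1 without 1 library. Over all genes, median-of-ratios scaling gave 5290 higher and quantile normalization 5990 (lower calls were 68.3% of calls as deposited, 50.4% and 44.2% with these scalings, 47.9% after GC adjustment), and 4213 were lower after GC and length adjustment.

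Other intermediate filament genes called lower were 2 and 1 with the 2 scalings. With GC and length adjustment the counts were 5 lower cytolinkers, 1 higher hemidesmosome gene, 7 lower filament regulators and 3 lower biliary markers. Mesenchymal markers called lower were 3 with no filter, either scaling or the threshold of 0.01, and 3 to 6 without 1 library. Epithelial markers called higher were 5 with either scaling. Hemidesmosome genes called higher were 1 at the threshold of 0.01 and 1 to 2 without 1 library. KRT15 was at -0.022 after GC adjustment and from -0.054 to 0.17 without 1 library, and was called with quantile normalization (0.52). SYNC was at 0.13 and DNMT3B at 0.11 with that normalization. The DGCR8 log2 change was 0.18 with quantile normalization and 0.019 with median-of-ratios scaling. DGCR8 and DNMT3B were the next most like VIM. The cause of these shifts was not tested.

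Deviations from the group means were weakly correlated between libraries of the same replicate number (0.0941, -0.182 and -0.0726). With so few libraries these values cannot show whether replicates were handled as pairs, and the labels do not say. With the replicate number as a block 4 members were higher and 1 lower, as without it, with KRT8 at adjusted p = 3.40e-05 and VIM at 0.0159. The block left 3014 genes higher and 6823 lower. With the block and the GC and length adjustment together, 3981 genes were lower, as were 5 cytolinkers, 7 filament regulators, 3 biliary and 3 hepatocyte markers, 1 hemidesmosome gene was higher and KRT15 was at -0.022. The AFP log2 change (adjusted p = 0.0642) and the ZEB1 log2 change (adjusted p = 0.0748) then no longer passed. The ratios kept their direction under every alternative run. TPM keep no depth, so what depth limits for KRT7, KRT80, KRT81 and VIM is unknown.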
